A study of Mus musculus with 12 samples.

Results

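Histone H3 monomethylated at lysine 4 (H3K4me1) was mapped by ChIP-seq in the epithelium of the mouse small intestine, once in crypts and once in villi. The peaks described here were selected by their position in those maps. They were the peaks of the villi list on autosomes that had no overlap, not even by 1 bp, with a peak of the crypts list and that lay within 1 kb of the start site of a protein-coding transcript (GENCODE M21, GRCm38). This rule gave 1680 peaks at 1612 genes, out of 15594 promoter H3K4me1 peaks of the villi list and 55341 villi H3K4me1 peaks in all. They are called villi-only promoter peaks below. The absence of H3K4me1 in crypts is thus part of the selection and not a result, whereas H3K4me3, H3K27me3 and DNA sequence at the same start sites did not enter it.

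Both compartments came from the small intestine of mice whose strain, sex and age are not given in the sources used here. Villi were scraped off the opened tissue and crypts were then released from the remainder with EDTA, so neither fraction was sorted. Chromatin was mixed with spike-in chromatin of Drosophila S2 cells and precipitated with antibodies to H3K4me1, H3K4me3, H3K27me3 and H3K9me3. There was 1 library for each compartment and modification, so no difference between crypts and villi could be tested, and the intervals given are 95% Wilson intervals that cover counting error over peaks only. The values were the authors' peak lists, whose read depth is unknown, and a change in width or in the presence of a peak cannot be told apart from a difference in depth or enrichment between 2 libraries. In such bulk material, fewer cells that carry a mark and less mark per cell cannot be told apart either. The authors also report that part of histone H3 in villi has lost its N-terminal tail. They found weaker H3K4me1 and H3K4me3 signal in villi, with H3K27me3 kept at repressed promoters. The part of this loss in the peak lists was not tested.

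H3K4me1 and H3K4me3 are successive methylation states of the same residue. At an active promoter H3K4me3 usually occupies the nucleosomes next to the start site and H3K4me1 flanks it, while H3K4me1 without H3K4me3 is typical of enhancers and of promoters with little activity. H3K27me3 is laid down by Polycomb repressive complex 2, above all over CpG-rich promoters of developmental genes. Intestinal crypts hold the dividing stem and progenitor cells, and villi carry the differentiated, mostly absorptive cells.

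The 2 fractions differed at their own marker genes in the direction of their names. Of 20 intestinal stem cell genes with an H3K4me3 peak in both fractions, 19 had a narrower peak in villi, with a median log2 ratio of villi to crypts width of -0.63. The peak at Lgr5, the receptor that marks crypt base stem cells, measured 2989 bp in crypts and 1356 bp in villi, and Olfm4 had a peak of 4388 bp in crypts and none in villi. Of 22 genes of the enterocyte brush border and digestion, 3 were narrower in villi and the median log2 ratio was 0.22. Over the 12003 genes with H3K4me3 in both, the median was -0.04. Markers of T cells also differed between the fractions. Of 27 genes of T cells and intraepithelial lymphocytes, which lie within the villus epithelium, 3 had an H3K4me3 peak in crypts and 13 in villi. Cd3e and Cd3g of the T cell receptor complex, the coreceptor gene Cd8a and Ptprc, the pan-leukocyte CD45 gene, had one in villi only, of 1181, 2180, 829 and 1608 bp. Of 14 B and plasma cell genes 3 had H3K4me3 in crypts and 3 in villi, and of 20 macrophage and dendritic cell genes 1 and 2. The part of such cells in the villi-only H3K4me1 peaks was not tested.

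The villi-only promoter peaks lay in DNA of very different CpG content. The following 6 stretches, 1 for each H3K4me3 class, are the central 240 bp of a high-scoring peak. They come from the highest-scoring peak among the genes named by rule, passing over peaks whose central 240 bp touch an annotated UTR, and were read from GRCm38 on the strand of the gene, with every CpG in capitals. At Smarca5, a nucleosome-remodelling ATPase whose H3K4me3 peak narrowed in villi, the stretch was chr8:80737806-80738045 (minus strand) in an intron of the gene, and it held 1 CpG. At Gfi1, a zinc finger repressor of blood and secretory lineages whose H3K4me3 peak widened, it was chr5:107724788-107725027 (minus strand) in an intron, upstream of the nearest start, and it held 16. At Pros1, which encodes the anticoagulant protein S and had H3K4me3 of similar width, it was chr16:62853793-62854032 (plus strand) outside genes, upstream of the start, and it held 0. At Sox2, a transcription factor of stem cells and foregut with H3K4me3 in villi only, it was chr3:34649304-34649543 (plus strand) in an intron of the overlapping Sox2ot transcript, and it held 14. At Egflam, an extracellular matrix protein gene with H3K4me3 in crypts only, it was chr15:7398569-7398808 (minus strand) in an intron of Gm16029, and it held 4. At Lnx1, a ubiquitin ligase gene with no H3K4me3 at this start, it was chr5:74624758-74624997 (minus strand) in an intron of Lnx1 itself, and it held 1.
Smarca5: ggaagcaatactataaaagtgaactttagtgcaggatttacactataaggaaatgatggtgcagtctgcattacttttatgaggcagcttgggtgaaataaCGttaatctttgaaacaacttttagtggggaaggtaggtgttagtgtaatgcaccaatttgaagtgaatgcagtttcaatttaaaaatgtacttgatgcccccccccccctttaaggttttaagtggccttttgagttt
Gfi1: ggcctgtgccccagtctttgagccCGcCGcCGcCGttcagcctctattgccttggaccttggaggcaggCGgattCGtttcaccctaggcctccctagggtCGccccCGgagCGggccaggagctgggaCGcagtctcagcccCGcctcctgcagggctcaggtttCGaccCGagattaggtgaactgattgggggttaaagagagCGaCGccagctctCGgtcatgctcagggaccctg
Pros1: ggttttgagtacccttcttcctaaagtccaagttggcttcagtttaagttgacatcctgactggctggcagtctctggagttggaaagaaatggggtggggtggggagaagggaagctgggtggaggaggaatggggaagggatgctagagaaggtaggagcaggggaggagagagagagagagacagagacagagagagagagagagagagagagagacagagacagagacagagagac
Sox2: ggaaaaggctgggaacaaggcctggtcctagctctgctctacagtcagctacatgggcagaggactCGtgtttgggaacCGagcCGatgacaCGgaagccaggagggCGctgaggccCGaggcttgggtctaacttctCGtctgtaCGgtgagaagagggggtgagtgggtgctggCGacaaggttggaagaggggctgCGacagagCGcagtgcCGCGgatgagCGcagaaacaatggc
Egflam: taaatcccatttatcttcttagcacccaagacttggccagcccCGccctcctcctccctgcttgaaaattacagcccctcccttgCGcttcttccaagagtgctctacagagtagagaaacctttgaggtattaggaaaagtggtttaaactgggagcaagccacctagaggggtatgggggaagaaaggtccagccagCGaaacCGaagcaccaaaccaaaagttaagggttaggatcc
Lnx1: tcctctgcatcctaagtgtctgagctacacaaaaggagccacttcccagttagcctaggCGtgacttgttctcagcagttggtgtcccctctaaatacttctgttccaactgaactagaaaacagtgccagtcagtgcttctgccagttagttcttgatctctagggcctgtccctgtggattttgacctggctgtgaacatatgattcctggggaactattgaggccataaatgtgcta

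By score, the villi-only promoter peaks were weak members of their list. The score of the lists, whose lowest value is 10.0, was taken as the authors' −log10 p. The villi-only promoter peaks had a median score of 13.3 (quartiles 11.5 and 16.7) and a median width of 706 bp (quartiles 515 and 1023), against a median score of 19.6 and a median width of 1326 bp for the 13914 promoter peaks that overlapped a crypts peak. Only 19.3% of them (17.5 to 21.2%) were in the top 50% of the villi list. Among all villi H3K4me1 peaks on autosomes 17.8% had no crypts counterpart, and among promoter peaks 10.8%. In the lowest-scoring 10% of promoter peaks this share was 28.6%, and in the highest-scoring 10% it was 0.385%, or 6 peaks.

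Many of them were close to a crypts peak that they did not touch. The gap to the nearest crypts H3K4me1 peak was under 1 kb for 518 peaks (30.8%) and over 10 kb for 507 (30.2%), with a median of 2059 bp. The smallest gaps were 11 bp, at Chdh, and 35 bp, at Mrpl52. Just outside the rule, villi peaks at Rnf141 and Poli overlapped a crypts peak by 47 bp and 76 bp. At the other limit, the peaks at Nedd8 and Ppcdc ended 1000 bp from a start, and those at Krtap1-3 and Arpc1b at 1002 bp were left out. For 616 of the 1680 (36.7%) another crypts H3K4me1 peak lay within 1 kb of the same start, so that the start was not bare of H3K4me1 in crypts. In 51 cases (3.04%) a crypts-only peak stood at the same start.

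The villi-only promoter peaks took all positions around the start in nearly equal parts. 561 (33.4%, 31.2 to 35.7%) covered the start base itself, 564 lay upstream and 555 downstream. The 2639 promoter peaks found only in crypts were placed otherwise, with 17.5% over the start and 49.0% upstream. Shared peaks covered the start in 35.5% of cases, close to the villi-only value. The centre of the villi-only peaks fell in an intron in 42.0%, outside genes in 30.9%, in a UTR in 12.7% and in a coding exon in 8.63%. The villi-only share over the 19 autosomes' promoter peaks ranged from 7.83% on chromosome 18 to 12.5% on chromosome 1.

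**Figure D1:**
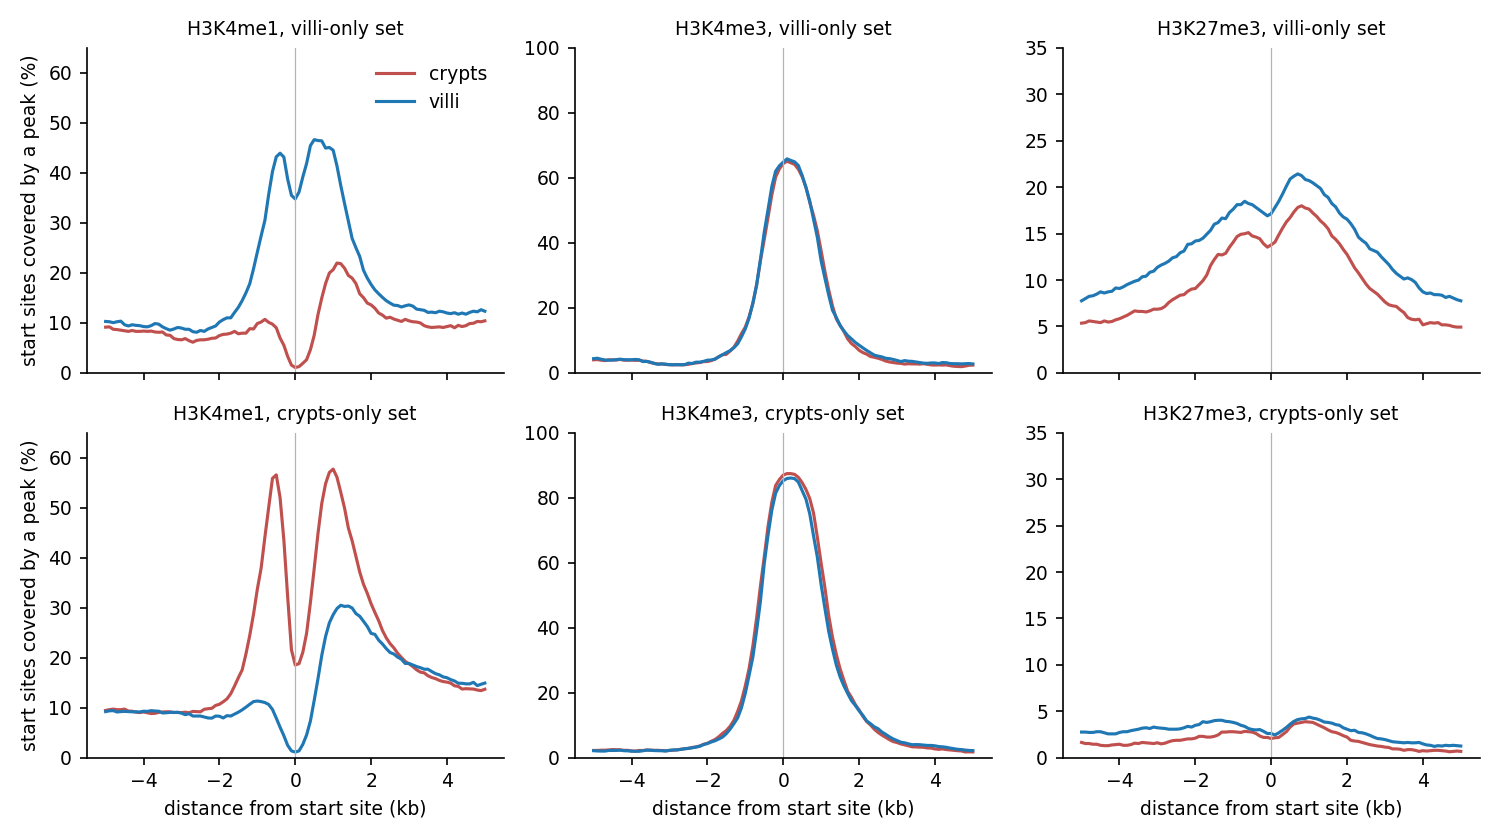
Share of start sites covered by a peak at each distance from the start (kb, transcription to the right), for the 1662 start sites of villi-only promoter H3K4me1 peaks (top) and the 2597 of crypts-only ones (bottom), in crypts (red) and villi (blue). At the start base H3K4me3 covered 64.4% of the villi-only sites in crypts and 64.8% in villi, while H3K27me3 covered 13.8% and 17.1%; the H3K4me1 panels show the selection.

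H3K4me3 at the start sites divided the peaks into a large group with the mark in both compartments and a smaller one without it. Of the 1680, 1120 had an H3K4me3 peak within 1 kb of the start in both crypts and villi (66.7%, 64.4 to 68.9%), 491 in neither (29.2%, 27.1 to 31.4%), 47 in villi only and 22 in crypts only. Shared promoter peaks had H3K4me3 in both in 85.1% and in neither in 11.5%, and crypts-only peaks in 89.5% and 9.47%. Start sites without H3K4me3 were thus more frequent than in either set. The intervals did not overlap, but they cover counting error over peaks only and not variation between libraries. Over all 52063 autosomal start sites 43.7% lacked H3K4me3 in both. Because the villi-only peaks scored low, the shared peaks were also taken within 4 score classes bounded by the quartiles of the villi-only scores, a step added after the data were seen. In the lowest class 37.1% of villi-only and 12.6% of shared peaks lacked H3K4me3, and in the highest 25.7% and 11.4%. The difference from shared peaks was nearly absent when only the top 50% of every list was kept (39.2% against 37.1%), while crypts-only peaks had 23.6%. That setting leaves out many H3K4me3 peaks and also the weaker crypts H3K4me1 peaks. With it 2644 peaks counted as villi-only, beside 324 when only the villi H3K4me1 list was cut, so the sets were not the same.

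**Figure D2:**
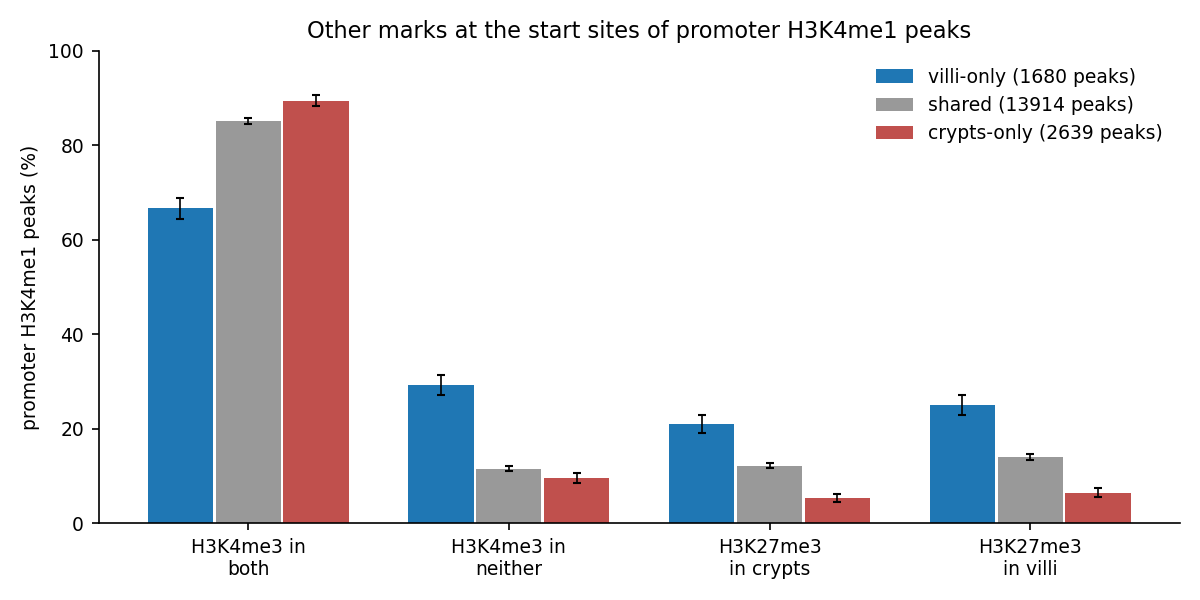
Share of promoter H3K4me1 peaks (%) with each state of H3K4me3 and H3K27me3 within 1 kb of the start, for villi-only (blue), shared (grey) and crypts-only (red) peaks; bars start at 0 and error bars are 95% Wilson intervals. Among villi-only peaks 66.7% had H3K4me3 in both compartments and 24.9% had H3K27me3 in villi, against 85.1% and 14.0% of shared peaks.

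Where H3K4me3 was present in both compartments, its width was nearly the same. The median width at the villi-only peaks was 1764 bp in crypts and 1719 bp in villi, and the median log2 ratio of villi to crypts was -0.01 (quartiles -0.13 and 0.10, n = 1120). Shared peaks had a median of -0.03 and crypts-only peaks one of -0.07 (quartiles -0.18 and 0.02, n = 2361), and the median over the 11422 pairs of H3K4me3 peaks at all start sites was -0.03. The H3K4me3 peak narrowed past 1.5-fold in villi at 31 villi-only peaks and widened past 1.5-fold at 34. Counted as distinct pairs of H3K4me3 peaks these were 30 (2.76%) and 34 (3.13%) of 1085, beside 4.3% narrowed and 3.76% widened over all start sites, so neither was more frequent than the background.

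The edge of H3K4me3 next to the villi-only peak moved little. Where the H3K4me1 peak lay upstream, the upstream H3K4me3 edge reached 18 bp farther out in villi at the median (quartiles -32 and 75, n = 462). Where it lay downstream, the downstream edge was shifted by a median of -19.5 bp, that is, inwards (quartiles -105 and 61, n = 402). At shared peaks the medians were -10 bp upstream and -38 bp downstream, and at crypts-only peaks -40.5 bp upstream (n = 1238) and -66 bp downstream (n = 811). Of the bases of the villi-only peaks, 3.87% were under H3K4me3 in crypts and not in villi, 5.6% in villi and not in crypts, 37.9% in both and 52.7% in neither. Shared peaks were close to this, with 4.94% under H3K4me3 in crypts alone and 5.13% in villi alone, while crypts-only peaks had 9.31% and 1.91%. A villi-only H3K4me1 peak over DNA that carried H3K4me3 only in crypts was thus the exception.

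**Figure D3:**
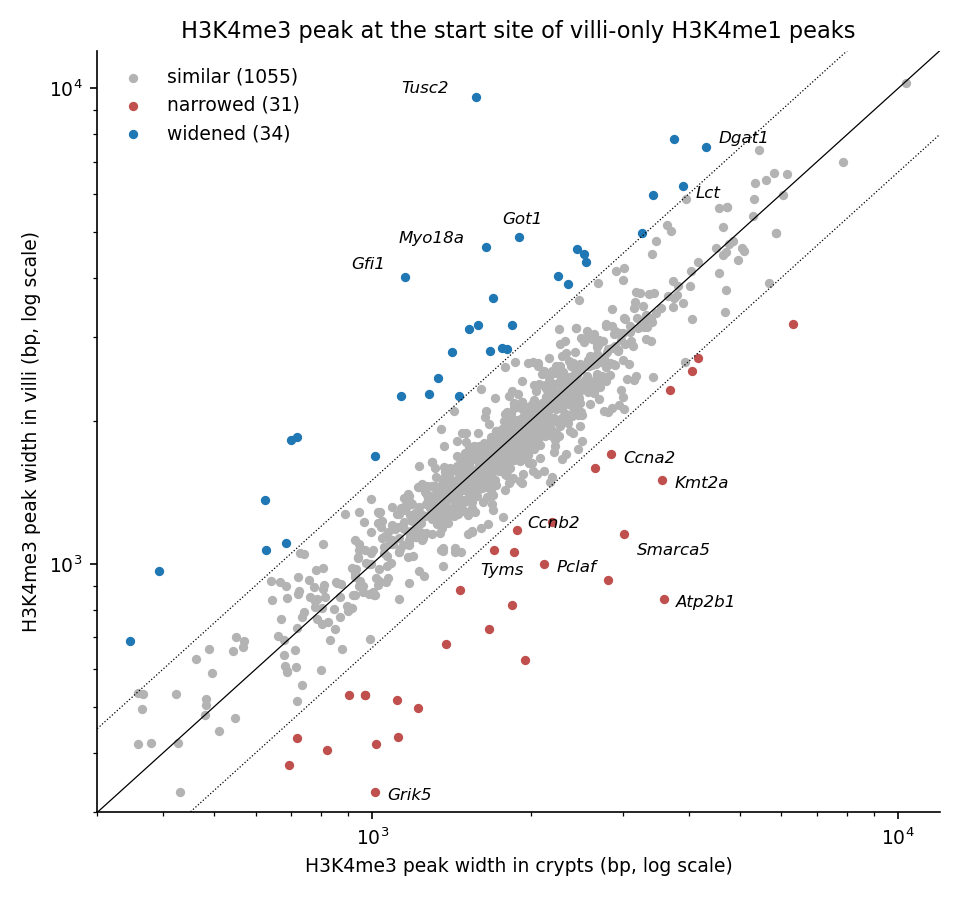
Width of the H3K4me3 peak nearest to the start site in crypts (x, bp, log scale) and villi (y, bp, log scale) at the 1120 villi-only promoter H3K4me1 peaks with the mark in both; the solid line marks equal width and the dotted lines 1.5-fold. Most points lie between the dotted lines, with 31 narrowed in villi (red) and 34 widened (blue).

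Genes of the cell cycle were among those with a villi-only promoter peak and a narrower H3K4me3 peak in villi. Of 34 genes of the cell cycle and replication list, 8 (23.5%) had a villi-only promoter peak, beside 7.78% of all 20722 autosomal protein-coding genes, and 6 (17.6%) had a crypts-only one, beside 11.9% of all genes. Ccna2, Tyms and Mcm7 had both kinds. The 8 were the replicative helicase subunits Mcm3 and Mcm7, the replisome factor Gins2, the cyclins Ccna2 and Ccnb2, the kinase Cdk4, the thymidylate synthase Tyms and the transcription factor Foxm1. At 5 of these 8 the H3K4me1 peak covered the start, compared with 22.9% of all villi-only peaks with H3K4me3 in both. All 8 had a narrower H3K4me3 peak in villi, as did 33 of the 34 genes of the list, whose median log2 ratio was -0.42 against -0.04 over all genes. The narrowing was therefore not limited to the genes with a villi-only H3K4me1 peak.

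At Ccna2, the cyclin of S phase and mitotic entry, the crypts H3K4me3 peak spanned 2843 bp and the villi peak 1700 bp. The downstream edge lay 1042 bp nearer to the start in villi. Of the villi H3K4me1 peak of 1408 bp, 462 bp lay under H3K4me3 of crypts alone and 946 bp under H3K4me3 of both. At Ccnb2, a mitotic cyclin, the widths were 1888 bp and 1180 bp. Of its 1465 bp H3K4me1 peak, 289 bp lay under H3K4me3 of crypts alone and 1176 bp under H3K4me3 of both. The nearest crypts H3K4me1 peak was 50673 bp away at Ccnb2, but only 488 bp at Ccna2 and 337 bp at Tyms. Ccna2, Tyms, Gins2 and Foxm1 had another H3K4me1 peak within 1 kb of the same start in crypts. At Tyms, which makes the thymidylate for DNA synthesis, the widths were 1861 bp and 1061 bp, but only 23 bp of the H3K4me1 peak lay under H3K4me3 of crypts alone. The other 5 were narrower in villi by less than 1.5-fold, from Foxm1 with 2295 bp and 1665 bp to Cdk4 with 1731 bp and 1690 bp. Bases of their H3K4me1 peaks under H3K4me3 of crypts alone ran from 0 bp at Mcm3 to 210 bp at Mcm7.

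Pclaf, which encodes a PCNA-binding factor of replication and repair, was among the 8 highest-scoring villi-only peaks with a score of 33.0. Its H3K4me3 peak measured 2119 bp in crypts and 1000 bp in villi. The H3K4me3 peak of crypts ran from -266 to 1852 bp of the start and that of villi from -256 to 743 bp, while the villi-only H3K4me1 peak ran from -320 to 1914 bp. Here 1119 of 2235 bp of H3K4me1 lay where H3K4me3 was called in crypts alone. The narrowed class also held Cenpa, the centromeric histone H3 variant (2647 bp and 1594 bp), and Tfrc, the transferrin receptor (4064 bp and 2540 bp). Over the 31 narrowed cases 21.4% of the H3K4me1 bases lay under H3K4me3 of crypts alone, a value raised by the choice of narrowed peaks, and it was 23.0% at narrowed shared and 24.6% at narrowed crypts-only peaks.

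The largest narrowing of the nearest peak was in most cases a split. At 9 of the 31 the wide crypts peak overlapped more than 1 villi peak, and with their widths summed none of these 9 passed 1.5-fold, while 20 of the 31 did. At Atp2b1, a plasma membrane calcium pump, the nearest H3K4me3 peak was 3582 bp in crypts and 845 bp in villi, but the villi peaks under it summed to 3654 bp. Smarca5 went from 1 peak of 3014 bp to 2 peaks of 2636 bp in sum, and the methyltransferase gene Kmt2a, whose product writes H3K4 methylation, from 3550 bp to 3123 bp. At Smarca5 the H3K4me1 peak lay 888 bp downstream of the start and overlapped the downstream one of these villi peaks. Bcl9 (a Wnt coactivator), Tent4b (a poly(A) polymerase) and Vav3 (a guanine nucleotide exchange factor) were split as well. Of the 6 with the largest narrowing, Grik5, a kainate receptor subunit, kept a single villi peak, of 332 bp against 1013 bp in crypts, as did D630045J12Rik with 432 bp against 1119 bp.

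**Figure D4:**
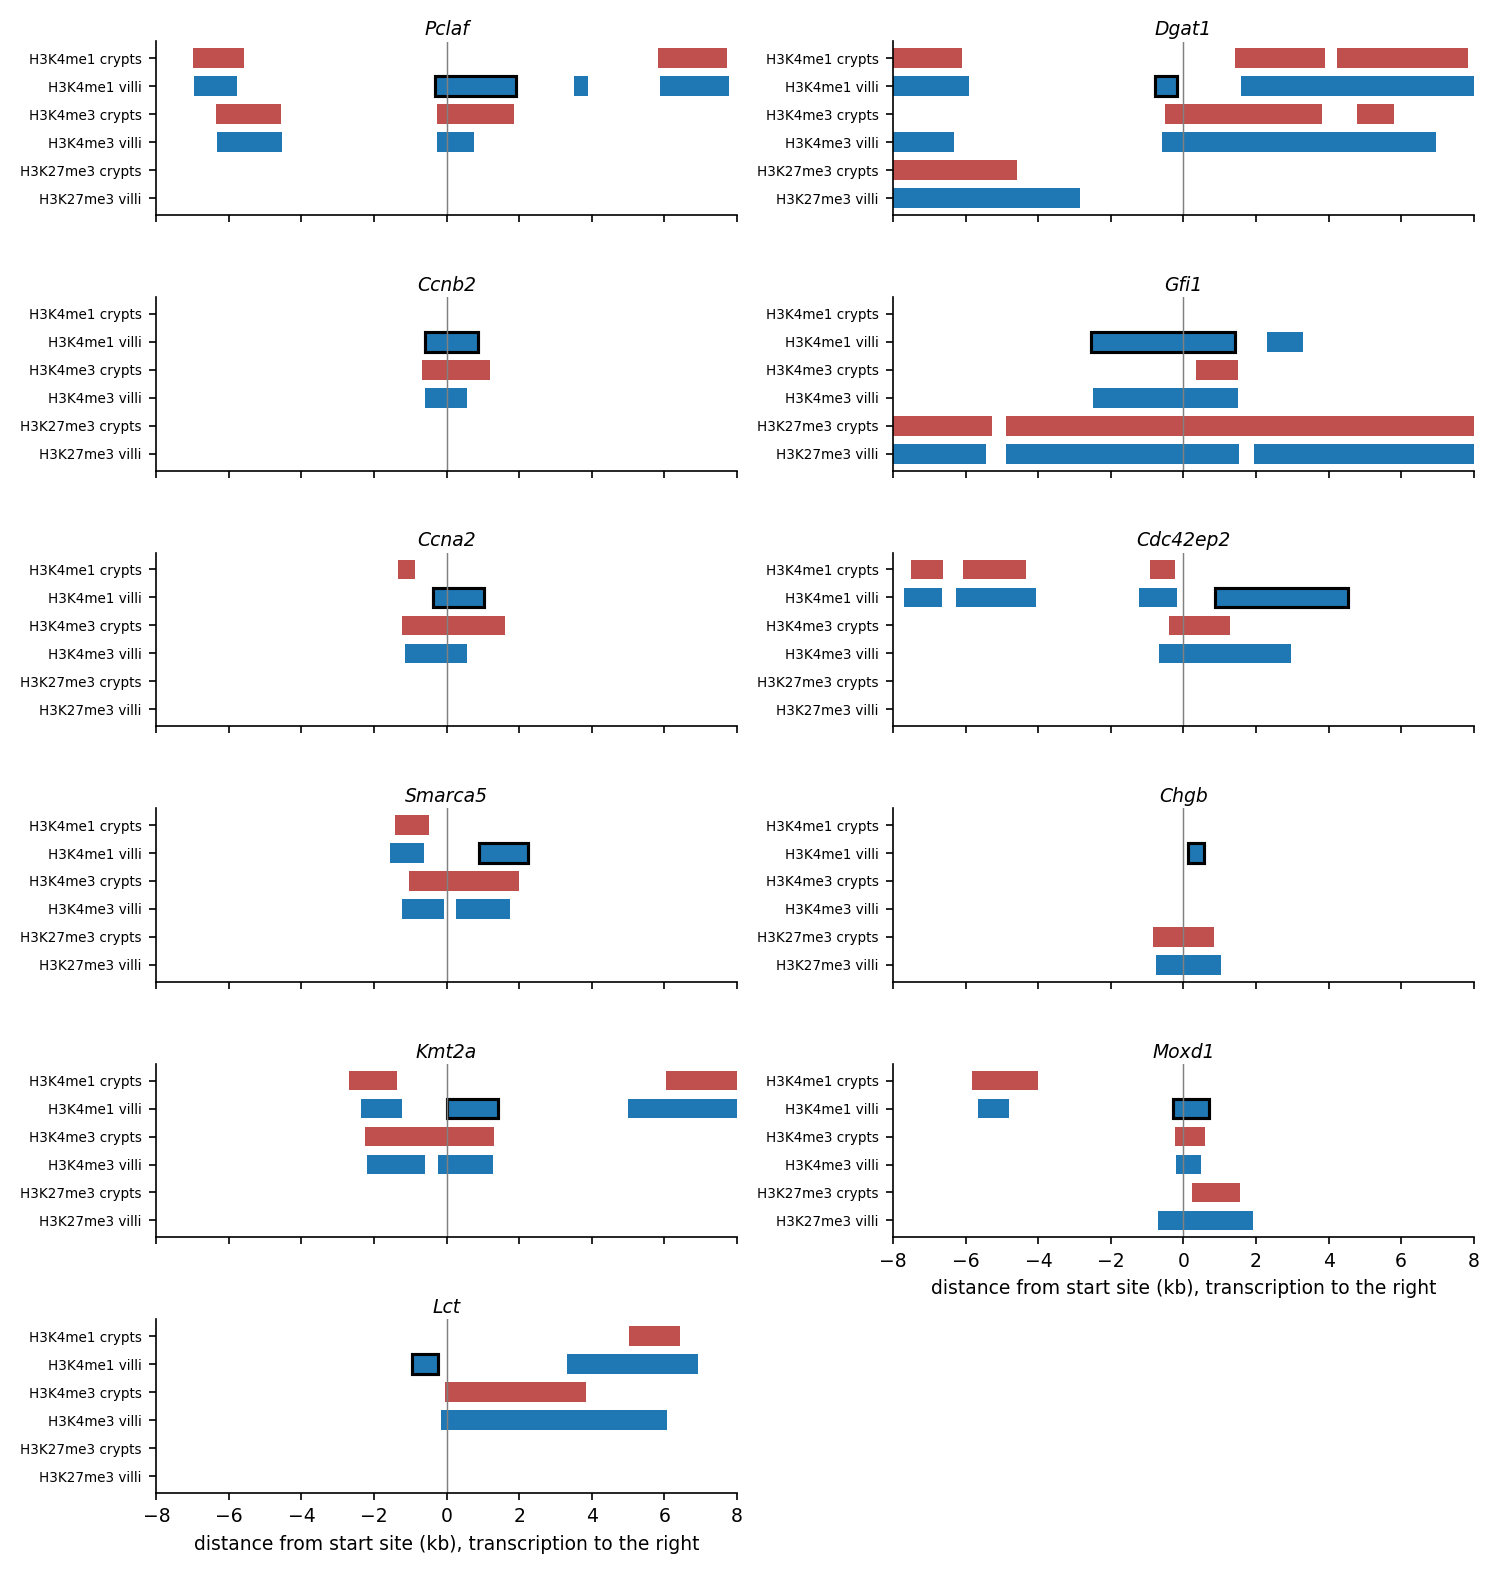
Peaks of H3K4me1, H3K4me3 and H3K27me3 in crypts (red) and villi (blue) from -8 to 8 kb of the start site at 11 genes, transcription to the right; villi-only promoter H3K4me1 peaks are outlined in black. At Pclaf, Ccna2 and Ccnb2 the outlined peak covers the start and the villi H3K4me3 peak ends nearer to the start than in crypts; Smarca5 and Kmt2a have 2 villi H3K4me3 peaks in place of 1; at Lct and Dgat1 H3K4me3 extends farther downstream in villi.

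Of the 34 widened cases, 23 had no H3K27me3 in either compartment, and Lct and Dgat1 were the only ones on a list of enterocyte genes. At 27 of the 34 widened cases the downstream edge moved more than the upstream one, with a median downstream extension of 1213 bp and a median upstream extension of 73 bp. The H3K4me1 peak lay on the side that moved more in 12 of the 34. At Lct, the lactase gene, H3K4me3 measured 3893 bp in crypts and 6239 bp in villi and extended 2236 bp farther downstream, whereas the villi-only H3K4me1 peak lay 240 bp upstream of the start and held no H3K4me3. At Dgat1, a triglyceride-forming acyltransferase, the widths were 4307 bp and 7541 bp, and a second crypts peak brought the crypts sum to 5327 bp. Got1, an aspartate aminotransferase, went from 1901 bp to 4870 bp, with 2 crypts peaks that summed to 2545 bp, and Clrn3 from 3752 bp to 7818 bp. Cdc42ep2, an effector of the GTPase Cdc42, had 1696 bp and 3622 bp, and its H3K4me1 peak, with a score of 30.9, lay downstream of the start. At the largest value, Tusc2 with 1576 bp and 9590 bp, the crypts peaks under the villi peak summed to 8462 bp. With such sums 29 of the 34 stayed past 1.5-fold.

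Among the transcription factor genes, Gfi1 had 1155 bp in crypts and 4007 bp in villi, with 2864 bp gained upstream under a villi-only H3K4me1 peak, within an H3K27me3 domain that was 1 peak of 13075 bp in crypts and 2 peaks of 12817 bp in sum in villi. Gata3, a T cell regulator, had 1588 bp and 3183 bp, and Runx2, known from bone, 1803 bp and 2830 bp, both with H3K27me3 in both compartments. At Tbx21, the T-bet gene, H3K4me3 was 645 bp and 841 bp, and at Runx3, another T cell regulator, 1311 bp in villi and absent in crypts. Of the 27 genes of the T cell and intraepithelial lymphocyte list 2 had a villi-only promoter peak (7.41%, near the 7.78% of all genes), and none of the 3 with H3K4me3 in both was narrower in villi (median log2 ratio 0.45). Itgam was the only one of 20 macrophage and dendritic cell genes with such a peak, and none of 14 B and plasma cell genes had one.

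H3K4me3 in 1 compartment only was rare and mostly came as narrow peaks. The 47 with H3K4me3 in villi only (2.8%) had a median peak width of 637 bp, and the 22 with it in crypts only (1.31%) one of 668 bp. Over all start sites 1.24% had H3K4me3 in villi only and 1.13% in crypts only. At Sox2 the villi peak was 439 bp wide within an H3K27me3 domain that was 1 peak of 29391 bp in villi and 5 peaks of 32131 bp in sum in crypts. Lrrc75b (988 bp), Hdgfl3 (819 bp), Tmem130 (489 bp) and Pth2 (949 bp), which encodes a neuropeptide, were the other high-scoring villi-only cases, and H3K27me3 was present at 31 of the 47 in both compartments. Crypts-only cases were Egflam (737 bp), Bhlha15, a regulator of secretory cells (701 bp), Arhgap24 (868 bp) and Calcrl, an endothelial receptor (741 bp). A villi H3K4me3 peak outside the window but within 5 kb of the start was found for 1 of the 22, and a crypts one for 5 of the 47. Hopx, a marker of slowly cycling stem cells, had a crypts H3K4me3 peak of 470 bp at the start covered by its H3K4me1 peak and none in villi, while its start with the widest H3K4me3 had 3337 bp in crypts and 3130 bp in villi.

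H3K27me3 was common at the villi-only peaks. It was present within 1 kb of the start in 351 in crypts (20.9%) and in 419 in villi (24.9%, 22.9 to 27.1%). Shared peaks had it in 12.2% and 14.0%, crypts-only peaks in 5.34% and 6.44%, and all start sites in 10.8% and 13.5%. It was present in both compartments at 343, in villi only at 76 (4.52%) and in crypts only at 8 (0.476%), beside 3.17% and 0.559% of all start sites. Where it was in both, the domain was wider in villi, with medians of 3080 bp (crypts) and 4307 bp (villi) and a median log2 ratio of 0.35 between the nearest peaks. At 89 of them the wider peak overlapped more than 1 peak of the other compartment, and with such peaks summed, a step added after the data were seen, the median was 0.29 (n = 340) and 289 were wider in villi. With sums the ratio was 0.22 at shared peaks and 0.17 at crypts-only ones, so the wider villi domains were not limited to the villi-only peaks, and the villi H3K27me3 list was also longer as a whole (13797 peaks against 7611 in crypts).

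The high-scoring peaks with H3K27me3 in villi only were at Zfp286, a zinc finger gene (591 bp), Sidt1, which encodes a double-stranded RNA channel (838 bp), Serpinh1, a collagen chaperone (1928 bp), Tmed8 (714 bp) and Tshz2, a homeobox zinc finger (1529 bp). All but Serpinh1 had H3K4me3 of similar width in both compartments, and Serpinh1 had none. Those with H3K27me3 in crypts only were at Pfn2, a profilin (752 bp), Otud1 (1183 bp), Zbtb40 (852 bp), Slc6a4, the serotonin transporter (909 bp), and Rusc1 (1303 bp). At Slc6a4 the H3K4me1 peak lay 979 bp upstream, only 97 bp from a crypts H3K4me1 peak. Of the highest-scoring villi-only peaks, those at Moxd1 (score 42.8) and Foxi3 (35.2) had H3K27me3 in both, with 1319 bp and 2613 bp at Moxd1, a copper monooxygenase, in crypts and villi. Macf1, a cytoskeletal linker (39.0), Pros1 (31.9) and Lnx1 (31.6) had none.

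The start sites without H3K4me3 fell into 2 kinds by H3K27me3 and CpG content. Of the 491, 224 (45.6%) had H3K27me3 in both compartments and 34 in villi only, while 232 had neither mark. Shared peaks without H3K4me3 had H3K27me3 in both in 22.3% and crypts-only ones in 19.2%. Those with H3K27me3 in both were CpG-rich, with a median observed to expected CpG ratio of 0.69 in the 500 bp around the start. Those with neither mark had a median of 0.23. Starts with H3K4me3 in both had 0.81, and all start sites 0.57. The same order held at shared peaks, with 0.65, 0.23 and 0.78. In 131 of the 232 with neither mark (56.5%) another start of the same gene carried H3K4me3, compared with 27 of the 224 (12.1%). Shared peaks were close to this, with 59.3% and 12.6%, and crypts-only peaks had 46.7% and 10.4%. Anpep, the brush border aminopeptidase N, was one of the genes with a villi-only peak at a start with neither mark and H3K4me3 at another start. Its peak at a start without H3K4me3 scored 12.4, another villi-only peak covered a start with 2238 bp of H3K4me3 in crypts and 2142 bp in villi, and its start with the widest H3K4me3 had 7258 bp and 12739 bp.

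**Figure D5:**
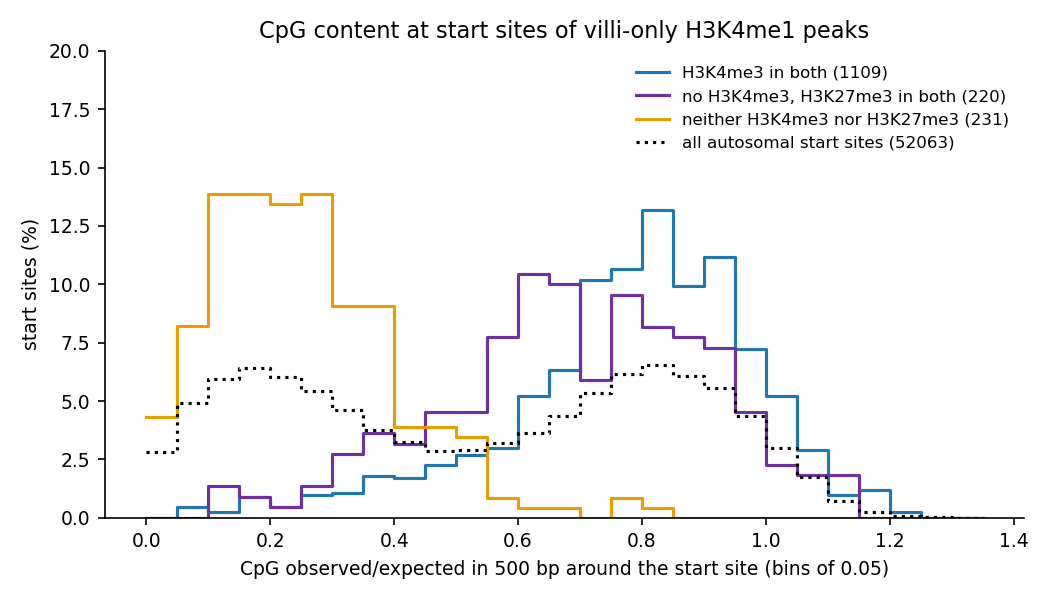
Observed to expected CpG ratio in 500 bp around the start sites of villi-only promoter H3K4me1 peaks (x, bins of 0.05) against the share of start sites (y, %), split by H3K4me3 and H3K27me3, with all 52063 autosomal start sites dotted. Starts with neither mark peak at low ratios (median 0.23), those with H3K27me3 (0.69) and those with H3K4me3 in both compartments (0.81) at high ones.

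The centres of the villi-only peaks were CpG-richer than those of the other promoter H3K4me1 peaks and CpG-poorer than start sites. The 500 bp at the centre of the villi-only peaks had a median ratio of 0.43 and a GC content of 50.6%, against 0.30 and 48.4% at shared and 0.35 and 44.6% at crypts-only peaks. The start sites of villi-only and shared peaks had equal medians to 2 decimals, 0.75. Short motifs, 8 in all, were searched on both strands in the 500 bp at the peak centre, and their shares are given for villi-only, shared and crypts-only peaks. TTTATGG, a core of Cdx sites, was present in 4.29% (3.42 to 5.36%), 5.92% and 8%, and in 3.67% of windows around all start sites. CCGGAAGT, an ETS site, was present in 1.55%, 0.827% and 0.947%, against 5.51% around all start sites. TGACTCA, the AP-1 site, was present in 7.98%, 7.94% and 7.96%, against 6.31%. The E-box CAGCTG was found in 23.8%, 24.5% and 19.4%, against 26.3%, and CCAAT in 44.6%, 46.3% and 47.6%, against 45.8%. The CRE TGACGTCA was found in 0.774%, 0.64% and 0.417%, against 2.29%, the NRF1 motif GCATGCGC in 1.85%, 1.16% and 1.14%, against 3.65%, and the HNF4 motif CAAAGTCCA in 1.01%, 1.01% and 0.72%, against 0.828%. A match is only a description of the letters.

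Most genes of enteroendocrine cells, the hormone-producing cells of the epithelium, that had a villi-only peak carried H3K27me3 and no H3K4me3 at that start. Of 24 enteroendocrine genes 7 (29.2%) had a villi-only promoter peak, beside 7.78% of all genes, and 1 (4.17%) had a crypts-only one, beside 11.9%. They were Chga and Chgb (granins of secretory granules), Cck and Ghrl (cholecystokinin and ghrelin), Pcsk1 (a prohormone convertase), and the transcription factors Fev and Pax6. Of these, 5 had H3K27me3 in both compartments and no H3K4me3 at the start, with domains of 1697 bp (crypts) and 1801 bp (villi) at Chgb, 3007 bp and 3129 bp at Chga, 5786 bp and 6359 bp at Cck, 8505 bp in sum and 11454 bp at Fev, and 35260 bp and 38316 bp in sum at Pax6. Another start of Pax6 had H3K4me3 of 775 bp in villi. Ghrl had neither mark. Pcsk1 had H3K4me3 of 1293 bp and 1373 bp and no H3K27me3. The scores were low, from 10.0 at Chga to 17.8 at Pcsk1. At Cck crypts also had an H3K4me1 peak within 1 kb of the start, and the nearest crypts peak was 539 bp away.

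Of 11 genes of the enteric nervous system 4 (36.4%) had a villi-only promoter peak. Tubb3, a neuronal tubulin (score 19.7), and Uchl1 had H3K27me3 in both compartments and no H3K4me3, Snap25, a synaptic fusion protein, had H3K27me3 of 680 bp in villi only, and Ret, the receptor of enteric neurons, had H3K27me3 with H3K4me3 of 1326 bp and 1257 bp. At Snap25 crypts also had an H3K4me1 peak within 1 kb of the start, and the nearest crypts peak was 673 bp away. Endothelial genes had 2 of 18 (Flt1 and Sox18) and those of smooth muscle and fibroblasts 1 of 22 (Des, the muscle filament desmin), near the 7.78% of all genes, and these 3 had H3K27me3 in both and no H3K4me3. The glial markers Sox10, S100b and Gfap had no H3K4me3 peak in either compartment, and 2 of the 11 genes, Ret and Elavl4, had one in both. The part of such cells in the villi libraries was not tested.

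Other lists were nearer to the background of 7.78%. Polycomb genes had 4 of 24 (16.7%), namely Suz12, Jarid2, Ring1 and Pcgf1, all with H3K4me3 of similar width and without H3K27me3. The circadian clock list had 3 of 19 (Npas2, Tef and Bhlhe41), brush border genes 3 of 23 (Lct, Anpep and Tm4sf20), interferon response genes 3 of 25 (Irf3, Ifit3 and Psmb8) and Wnt pathway genes 3 of 34 (Wnt4, Axin1 and Myc). Myc, a proliferation factor and Wnt target, had 2 villi-only peaks at a start with H3K4me3 of 5861 bp (crypts) and 4967 bp (villi). Goblet cell genes had 2 of 16 (Tff3, a secreted trefoil factor, and Foxa3), cell cycle inhibitors 2 of 16 (Cdkn2b and Mxi1), stem cell genes 2 of 21 (Rgmb and Hopx) and intestinal transcription factors 2 of 27 (Gata4 and Vdr). Gata4, a regulator of the proximal intestine, had H3K27me3 of 856 bp in villi only, and its H3K4me3 was 4702 bp and 3773 bp. Slc15a1, the peptide transporter, was the only one of 25 nutrient transport genes, with H3K4me3 of 5434 bp and 7434 bp, and Dgat1 the only one of 24 of lipid absorption. There was 1 each among 20 Notch genes (Jag2), 17 tuft cell genes (Ptgs1), 11 MHC class II genes (H2-DMa) and 20 H3K4 methyltransferases and demethylases (Kmt2a). There was none among 29 xenobiotic metabolism genes, 19 of BMP signalling, 15 of Paneth cells, 24 of apoptosis and shedding, 14 histone-clipping candidates and 12 claudins.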

How the data were processed

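ChIP-seq peak lists of H3K4me1, H3K4me3 and H3K27me3 from crypts and villi were used, with 1 library per compartment and modification, and H3K9me3 lists were read only to check the build. Per the submitters' processing notes and methods, reads were aligned with Bowtie 1.1.2 to mm10 and dm6, duplicates were removed, and peaks were called by the authors with MACS2 2.1.1. The deposited lists give chromosome, start, end, name and a score. It was taken as the authors' −log10 p because peaks were called with a p-value cutoff and no value lies below 10.0. Whether the score itself is a p or a q value is not given in the sources used here. It was used to rank peaks within a list. Gaps in the peak names show that the lists were reduced after calling by a step not given there. Read counts were not used here and depth is unknown. No peak ran past a chromosome end of GRCm38.

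Start sites were those of all protein-coding transcripts of protein-coding genes (GENCODE M21, 52063 positions on autosomes). Overlap meant 1 bp, and the peak of another mark at a start was the one nearest to it within 1000 bp. Width ratios are log2(villi width/crypts width), with 1.5-fold called narrowed or widened. CpG content was read from 500 bp of the RefSeq copy of GRCm38.p6 (pysam 0.24.0, Python 3.11.15). The classification was tested on simulated peaks with planted overlaps and widths. With 1 library per arm no statistical test was made.

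Members, gene lists (29) and comparisons were chosen with earlier results of these data known. Genes were named by rule: the 8 highest scores, the 6 largest narrowings and 6 widenings of H3K4me3, the 5 highest-scoring peaks of each class with H3K4me3 or H3K27me3 in 1 compartment, and every listed gene, passing over Gm and Rik symbols; some genes are not reported here. Pclaf follows from the score, while Cenpa, Tfrc, Clrn3, Cdc42ep2, Gata3 and Runx2 were chosen after their values were seen. Alternatives changed the overlap rule, score threshold, merging, window, start sites and chromosomes. The H3K9me2 libraries were not used here.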

Additional observations from a re-analysis of the deposited data

How the results depend on the processing

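The median log2 ratio of H3K4me3 width stayed between -0.02 and -0.01 under all 12 alternatives, and the share of bases under H3K4me3 of crypts alone between 3.33% and 4.52% under all 9. The other results depended on how the peaks were selected. With no crypts peak within 1 kb, H3K4me3 in both fell to 56.5% of peaks, and H3K27me3 was at 26.2% in crypts and 31.6% in villi. With 50% reciprocal overlap counted as shared there were 3633 peaks, 75.6% with H3K4me3 in both, and H3K27me3 at 14.2% and 16.8%. With the top 50% of the villi list alone there were 324 peaks, 70.4% with H3K4me3 in both and 28.4% with H3K27me3 in villi. With the top 50% of every list there were 2644 peaks, 54.4% with H3K4me3 in both, and H3K27me3 at 15.7% and 20.5%. With neighbouring peaks merged H3K4me3 in both was at 59.8%, and H3K27me3 at 24.5% and 29.7%. With only the outermost start of each gene H3K4me3 in both was at 73.1%. Why these values moved was not tested. The other 39 of 57 values stayed within the interval of the reported one, or within 1.5 times for counts. H3K27me3 was more frequent in villi than in crypts, and more frequent at villi-only than at shared and at crypts-only peaks, in each setting for which the sets were compared. No paired analysis was possible because each group had 1 library. The unknown depth limits every statement on width and absence.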

Other observations

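Homeobox and zinc finger genes were looked at after their names had been seen among the villi-only promoter peaks. Of 39 Hox genes, which pattern the body axis, 10 (25.6%) had such a peak and 1 (2.56%) had a crypts-only one, beside 7.78% and 11.9% of all genes. H3K27me3 was present in both compartments at each of their 11 peaks, and H3K4me3 only at Hoxb7 (2025 bp in crypts and 1571 bp in villi) and Hoxb9 (1117 bp and 1270 bp). At Hoxc6, with a score of 20.8, the H3K27me3 domain was 1 peak of 110743 bp in villi and 4 peaks of 109298 bp in sum in crypts, and this villi domain also held the peaks at Hoxc5 and Hoxc9. Of 385 Zfp genes, 47 (12.2%) had a villi-only and 92 (23.9%) a crypts-only promoter peak, both above the shares of all genes.

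Among the peaks with H3K27me3 in both compartments and no H3K4me3 at any start of the gene, high scores, picked after their values were seen, were found at Ahnak2 (29.7), Pgm5 (25.6), the mesenchymal factor Foxf2 (23.5) and the homeobox gene Nkx2-5 (21.6). At Foxf2 the H3K27me3 domain was 21058 bp in crypts and 20121 bp in sum over 2 peaks in villi, and at Nkx2-5 15394 bp and 16473 bp in sum.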
